A study of Rattus norvegicus with 2 samples.

Results

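H3K4me3, the trimethylated form of lysine 4 on histone H3, was mapped in C6 cells, an established rat glioma line, and the 1211 peaks that the authors listed on chromosome 12 are described here. The rule takes every listed peak of the chromosome, whatever its score or width, but the chromosome itself was picked with its density and score spread already known. The whole list holds 30172 peaks on 21 chromosomes, of which chromosome 12 has 4.01% (exact Clopper-Pearson 95% interval 3.79 to 4.24%). The mark was measured by chromatin immunoprecipitation and sequencing in 1 library made with a Millipore antibody, and the peaks were called against 1 library of input DNA, which had no antibody step. Both came from C6 cells grown in serum, and the labels give no treatment, second line or replicate. Every interval below therefore covers counting error within this library and not the spread between cultures. Positions are in the rn4 build and count from 1.

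H3K4me3 is deposited by the SET1 and MLL family of methyltransferases and sits around the start sites of active and poised genes, above all at promoters rich in CpG. The mark is read by TAF3 of the TFIID complex and by other proteins with a PHD finger, and is removed by the KDM5 demethylases. A map of its peaks along a chromosome is thus a rough map of where active and poised promoters lie, and in glioma cells as in other cells it is commonly used in that way. Wide domains of the mark are known from genes tied to cell identity. Whether a given chromosome 12 peak lies at a promoter was not analysed here.

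Each peak has a start, an end and a score, and the score is the authors' own value throughout. It was taken to be the peak caller's p-value as its negative log10 multiplied by 10, so a higher score means stronger evidence of enrichment over input and not directly a higher level of the mark. The number of reads behind a peak is unknown. Scores of chromosome 12 peaks ran from 50.11 to 3108.84 and widths from 270 to 8508 bp. In the text, a weak peak has a score under 100, a strong peak a score above 1000, and a middle peak a score between them.

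Chromosome 12 carried the most H3K4me3 peaks for its length of the 20 autosomes, and the excess was larger for weak and for strong peaks than for those between. Its peaks spanned 46.6 Mb, the shortest span of any autosome, which is 1.84% of the summed autosomal spans. The density was 26.0 peaks per Mb (exact Poisson interval 24.5 to 27.5), against 11.4 per Mb on the other 19 autosomes pooled. The ratio of these densities was 2.28 (exact interval 2.15 to 2.41). Peaks covered 3.76% of the span on chromosome 12, and between 1.09% on chromosome 2 and 3.22% on chromosome 10 among the others.

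The density ratio differed by class of score. Weak peaks numbered 492, or 10.6 per Mb, which was 2.65 times the density of weak peaks on the other autosomes (interval 2.42 to 2.90). Strong peaks numbered 204, or 4.38 per Mb, and their ratio was 2.52 (interval 2.18 to 2.90). The 515 middle peaks lay at 11.05 per Mb, a ratio of 1.94 (interval 1.78 to 2.12). Because the chromosome was picked with its score spread known, the lower ratio of middle peaks is only a description. Against chromosome 10, the next densest autosome with 22.6 peaks per Mb, weak peaks were 1.37 times as dense (interval 1.22 to 1.53). Middle peaks had a ratio to chromosome 10 of 1.02 (interval 0.914 to 1.13) and strong peaks one of 1.10 (interval 0.923 to 1.30), and both of these intervals include equality.

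Along the chromosome, peaks alternated between packed stretches and nearly bare ones. Counted in 1 Mb windows by their midpoints, the peaks fell into 43 of 47 windows, with a median of 25 peaks per window over all 47. The same median was 20 on chromosome 10 and 7 over the windows of the 19 other autosomes. The fullest windows were 42 to 43 Mb with 74 peaks and 32 to 33 Mb with 73 peaks. The window from 43 to 44 Mb followed with 58, and those from 15 to 16 Mb and from 35 to 36 Mb held 53 each. These 5 windows held 311 peaks, or 25.7% of the chromosome's total.

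The fullest windows differed in what they held. In the window from 42 to 43 Mb the peaks covered 10.7% of the bases, and 13 of its 74 peaks were strong. In the window from 32 to 33 Mb they covered 9.91%, with 8 strong and 39 weak peaks among the 73. The window next to it, 33 to 34 Mb, held fewer peaks, 48, but 18 of them were strong, the most of any window on the chromosome, and they covered 10.5% of its bases. The whole stretch from 32 to 36 Mb held 225 peaks, 18.6% of the chromosome's peaks, with 43 strong ones among them.

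The bare stretches were 5 runs of windows with fewer than 5 peaks each, 9 windows that together held 10 peaks. The longest runs were 24 to 27 Mb, with 2 peaks in 3 windows, and 29 to 32 Mb, with 4 peaks in 3 windows. The windows from 18 to 19 Mb, 13 to 14 Mb and 0 to 1 Mb held 0, 1 and 3 peaks. The longest single gap between neighbouring peaks was 2.12 Mb, from 23773914 to 25892693. The next were 1.66 Mb from 30515503 to 32175693, 1.59 Mb from 17944617 to 19536716, 1.16 Mb from 28953367 to 30110964 and 1.06 Mb from 231413 to 1288303. The run from 29 to 32 Mb thus ended directly at the packed stretch that begins at 32 Mb. Stretches in which no peak could have been called were not separated from those without the mark.

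**Figure D1:**
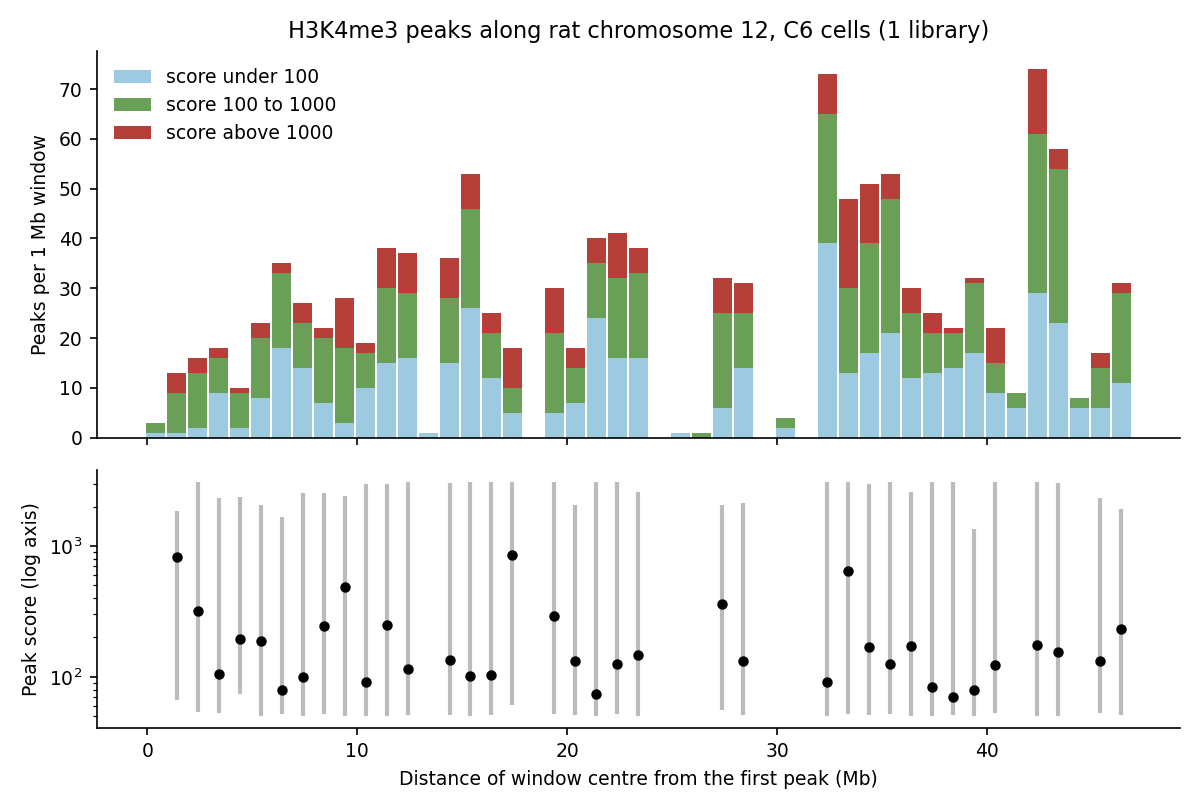
Upper panel: peaks per 1 Mb window of chromosome 12, stacked by class of score, against the distance of the window's centre from the first peak in Mb. Lower panel: the median score (point) and the range from lowest to highest score (line, log axis) of the 36 windows with at least 10 peaks. The tallest bars hold 74 and 73 peaks, and each line reaches from weak into strong scores.

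Despite these bare runs, the peaks of chromosome 12 were spread more evenly over its windows than those of any other autosome. The coefficient of variation of the window counts was 0.73 on chromosome 12, and ran from 0.83 on chromosome 17 to 1.48 on chromosome 16 among the others. Holding 50% of the peaks took the 13 fullest windows, or 27.7% of all windows, against 12.6 to 23.7% on the other autosomes. Windows with 30 or more peaks made up 42.6% of the chromosome (20 of 47), and 33.3% of chromosome 10. A coefficient of variation falls with the mean count by itself, and the mean was 25.8 peaks per window on chromosome 12.

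Chromosome 12 had a larger share of weak peaks than the whole list, while its share of strong peaks was near that of the list. Weak peaks made up 40.6% of the total (492 of 1211, interval 37.8 to 43.5%), where the background over the whole list is 35.0%. Strong peaks made up 16.8% (204 of 1211, interval 14.8 to 19.1%), near the background of 15.1%, whose value lies inside the interval. Chromosomes 10 and 7 had higher strong shares, 17.7% and 16.9%. The share of middle peaks was 42.5% (interval 39.7 to 45.4%), the lowest of the 20 autosomes, and 49.9% on the other autosomes pooled. The share of weak peaks was the highest of the 20, but its interval overlaps that of chromosome 20, which had 38.1% (interval 34.9 to 41.3%).

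Stricter limits gave chromosome 12 the highest share of the 20 autosomes at both ends, though not clear of the next autosome. Scores above 2000 belonged to 80 peaks, or 6.61% (interval 5.27 to 8.15%), against 3.59% (interval 3.37 to 3.81%) on the other autosomes pooled. Chromosome 7 had the next highest share, 4.73%, with an interval of 3.85 to 5.74% that overlaps that of chromosome 12. Scores under 60 belonged to 222 peaks, or 18.3% (interval 16.2 to 20.6%), against 13.9% on the others pooled and 16.8% on chromosome 19, the next highest, whose interval of 14.5 to 19.3% overlaps. The lower quartile of the score was 66.6 and the median 141.3, both the lowest of the 20 autosomes. The upper quartile, 666.6, ranked 5th, and the 90th percentile, 1593, was the highest. The upper quartile was 10.0 times the lower one, where the lowest ratio was 7.30, on chromosome 17, and the highest of the others 9.61, on chromosome 10. The bounds of both quartiles allow a ratio from 7.91 to 12.2, so this first rank is not firm. Leaving out the window from 33 to 34 Mb gave 9.36, and leaving out that from 1 to 2 Mb or from 17 to 18 Mb gave 9.56, all below chromosome 10. The 90th percentile was 29.2 times the 10th, against 20.4 to 24.7 on the others.

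Divided at the score deciles of the other 19 autosomes, chromosome 12 had an excess in the 3 lowest deciles and in the top decile. The lowest decile, scores from 50 to 56.6, held 13.4% of its peaks (interval 11.5 to 15.4%), and the top decile, scores from 1278 up, held 13.3% (interval 11.4 to 15.3%). The shares in deciles 4 to 9 ran from 7.27 to 8.92%. In the top decile chromosome 10 had 11.99%, inside the interval of chromosome 12. In the lowest decile chromosome 10 had 9.29%, below the interval of chromosome 12, but another autosome reached 12.1%, inside it. The highest shares of another autosome in deciles 2 and 3, 11.5% and 11.4%, also lay inside the intervals of chromosome 12.

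**Figure D2:**
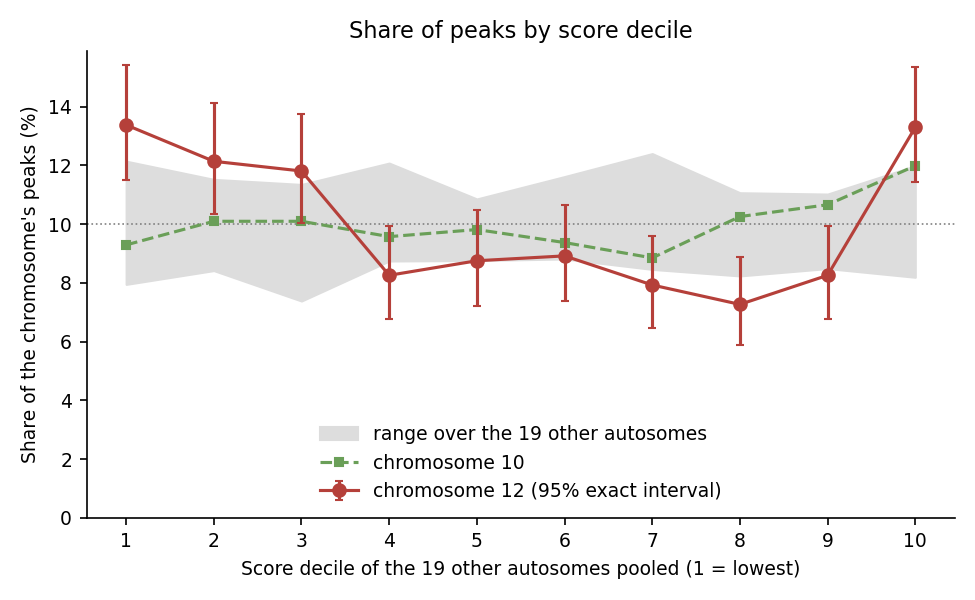
Share of peaks in each score decile, the deciles being those of the 19 other autosomes pooled, so that 10% is their pooled level (dotted line). Red points are chromosome 12 with exact 95% intervals, green squares chromosome 10, and the grey band the range over the 19 other autosomes. Chromosome 12 lies highest in the lowest decile (13.4%) and the top decile (13.3%).

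Both ends of the score range were found inside single windows and not only in different ones. All 36 windows with at least 10 peaks held both weak and strong peaks. Windows with many peaks tend to hold both classes by number alone, and no such count is given for other autosomes. Differences between the windows' mean log10 scores made up 7.62% of the variance of the log10 scores. The other autosomes had 5.83 to 13.2%. This share rises by itself where windows hold fewer peaks, so the values cannot be compared between autosomes. Window medians still ranged widely, from 70.4 at 38 to 39 Mb to 861.8 at 17 to 18 Mb, with 8 of the 36 under 100. At 38 to 39 Mb, 14 of 22 peaks were weak and 1 was strong. At 17 to 18 Mb, 5 of 18 were weak and 8 were strong, and at 1 to 2 Mb, where the median was 819.3, 1 of 13 was weak and 4 were strong. Across the 36 windows the number of peaks and the median score had a Spearman rho of -0.15, given as a description, since all windows come from 1 library.

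Weak peaks were compared in windows of like fullness. In its 9 windows with 40 or more peaks, 42.4% of 491 peaks were weak (interval 37.9 to 46.9%), against 33.0% (interval 31.8 to 34.2%) in the 118 such windows of the other autosomes. On chromosome 10 alone the share was 32.8% (interval 30.1 to 35.6%). Strong peaks made up 16.5% in these windows of chromosome 12 (interval 13.3 to 20.1%) and 18.98% in those of the other autosomes (interval 18.02 to 19.97%), and the 2 intervals overlap. On chromosome 10 alone they made up 18.8% (interval 16.6 to 21.2%). In windows with 20 to 39 peaks the weak share was 39.9% on chromosome 12 (interval 35.8 to 44.1%) and 35.8% on the others (interval 34.8 to 36.7%), which also overlap. In its 8 windows with 10 to 19 peaks it was 32.6% (interval 24.6 to 41.4%), against 35.1% on the others. The 7 windows with 1 to 9 peaks held 27 peaks in all, of which 63.0% were weak (interval 42.4 to 80.6%), against 35.5% weak on the others and 39.3% on chromosome 10. None of the 27, or 0%, was strong, against 14.2% on the others. Taking 3 counts as the one-sided limit of a count of 0 allows 11.1%, and the exact two-sided interval reaches 12.8%. The score spread was also compared by fullness. With 40 or more peaks per window, the upper quartile was 9.43 times the lower on chromosome 12, 9.79 times on the others and 10.3 times on chromosome 10. With 20 to 39 peaks the ratio was 9.71 on chromosome 12 and 8.58 on the others. With 10 to 19 peaks it was 10.7 and 7.89, and with 1 to 9 peaks 2.86 and 8.35.

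Widths were ordinary for an autosome. By width class, only the median score at 500 bp to under 1 kb had an interval clear of the other autosomes' medians. The median width was 1031 bp (interval 982 to 1109 bp), which ranked 12th of 20, with quartiles of 710 and 1814 bp. Peaks of 4 kb or more made up 4.13% (50 peaks, interval 3.08 to 5.41%), the highest share of the 20 but with an interval that takes in the 3.13% of the other autosomes pooled. Across peaks the Spearman rho of width and score was 0.82 on chromosome 12 and from 0.80 to 0.84 on the other autosomes. How far this relation follows from the way scores are computed was not tested.

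Peaks of 500 bp to under 1 kb had a lower median score than on any other autosome, and those of 4 kb or more a higher one than on the others pooled. The 89 peaks under 500 bp had a median of 56.1, inside the range of 55.8 to 59.2 over the other autosomes, and 91.0% of them were weak, against 90.4% on the others. Among the 497 peaks of the next class the median score was 71.7 (interval 69.6 to 75.8), below the range of 76.1 to 88.9 over the other autosomes' medians. In this class 69.6% of peaks were weak (interval 65.4 to 73.6%), against 60.2% on the others. Among the 369 peaks of 1 kb to under 2 kb the median was 265.6 (interval 229.4 to 325.7), and 334.0 on the others pooled. For the 206 peaks of 2 kb to under 4 kb it was 1198, the highest of the 20 autosomes, but its interval of 1014 to 1357 includes the 1076 of the others. The 50 peaks of 4 kb or more had a median of 2567 (interval 2358 to 2961), against 2196 on the others pooled, and 1 autosome had a higher median.

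**Figure D3:**
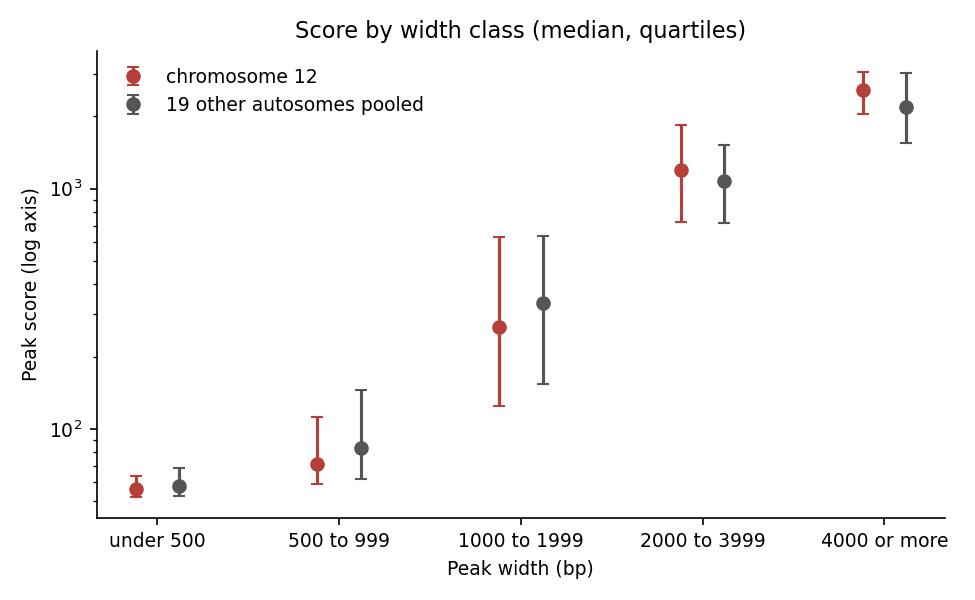
Median score (point) and quartiles (bars) by class of peak width in bp, on a log axis, for chromosome 12 (red) and the 19 other autosomes pooled (grey). Chromosome 12 lies lower at 500 bp to under 1 kb (71.7 against 83.6) and higher at 4 kb or more (2567 against 2196).

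The weak share was compared once more at equal widths. With the weak share of the other autosomes in each width class weighted by the widths of chromosome 12, 35.2% of peaks would be weak, close to their own 34.9% and below the 40.6% observed. The same weighting gave 16.1% strong peaks, against 15.2% unweighted and 16.8% observed.

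Of the 10 widest peaks, 6 lay in windows with 40 or more peaks, which held 40.5% of all peaks of the chromosome. The widest was 8508 bp at 33684379 to 33692886, with a score of 3100. A neighbour at 33699931 to 33707233 spanned 7303 bp and scored 784.4, the lowest score among the 10 widest. Another peak of this window, at 33975410 to 33982848, spanned 7439 bp and scored 2397, so the stretch from 33 to 34 Mb held 3 of the 4 widest peaks. Second in width, with 7457 bp, was a peak at 35936988 to 35944444 that scored 3100. Of the others, the peak at 15316994 to 15324008 (7015 bp) scored 1801 and that at 9781920 to 9788830 (6911 bp) scored 2408. The last 4 all scored 3100. The first lay at 12135479 to 12142321 (6843 bp), and the next at 16154748 to 16161079 (6332 bp). The remaining peaks were at 38161576 to 38167906, with 6331 bp, and at 22639555 to 22645642, with 6088 bp. The peak at 38161576 was the 1 strong peak of the 22 at 38 to 39 Mb, the window with the lowest median score.

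The highest listed score, 3108.84, belonged to a peak of 2563 bp at 22287582 to 22290144. Exactly 3100 was the score of 16 peaks, 1.32% of the total (interval 0.757 to 2.14%), against 0.755% on the other autosomes pooled, which lies just below the interval. Chromosome 7, the next highest, had 1.22%, inside the interval. No other score of chromosome 12 was shared by more than 4 peaks. The 16 peaks were 2465 to 8508 bp wide with a median of 4810 bp, and lay in 14 different windows. Besides the 6 already named among the widest, the next by width was 5169 bp at 32562965 to 32568133. It was followed by peaks of 4903 bp at 19597651 to 19602553 and of 4717 bp at 37116006 to 37120722. Whether 3100 is a true score or stands in for p-values too small to be stored could not be settled from the list. If it stands in, the peak listed at 3108.84 need not be stronger than these 16, and the upper end of the score range has no exact value. The order of the 16 among themselves is not known either way.

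Although chromosome 12 was the densest in peaks, a smaller share of its peaks than on the other autosomes pooled had a neighbour within 1 or 2 kb. Another peak lay within 1 kb of 509 peaks, or 42.03% (interval 39.2 to 44.9%), the lowest share of the 20 autosomes and below the 49.0% of the others pooled (interval 48.4 to 49.5%). Chromosome 13, the next lowest, had 43.2%, inside the interval of chromosome 12. Within 2 kb the share was 49.0% (interval 46.1 to 51.8%), against 54.4% on the others. Beyond 1 kb, neighbours were nearer on chromosome 12, with a median gap of 18.7 kb against 34.0 kb on the other autosomes. The nearest peak lay above 1 and up to 10 kb away for 30.9% of its peaks. That share was 19.5% on the others and 24.1% on chromosome 10. Among the gaps of up to 1 kb the medians were 219.5 and 216 bp.

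When peaks no more than 1 kb apart were merged, 923 regions resulted, 19.8 per Mb, which was 2.42 times the density of the other autosomes (interval 2.26 to 2.59) and 1.25 times that of chromosome 10 (interval 1.15 to 1.35). A single peak made up 702 regions, or 76.1% (interval 73.2 to 78.8%), against 71.2% on the others. Of these lone peaks 50.6% were weak (interval 46.8 to 54.3%), and 45.4% of lone peaks on the other autosomes were (interval 44.6 to 46.2%). There were 170 regions of 2 peaks, 37 of 3 and 14 of 4 or more. The regions with the most peaks held 5 each. One at 36300336 to 36306784 had a best score of 955.3, and one at 20902172 to 20905194, 3023 bp long, had a best score of only 209.5 with 4 weak peaks. Regions of 4 peaks lay at 12135479 to 12149587 (14109 bp, 3 strong peaks), 35589206 to 35600188 (10983 bp, best score 2523) and 32600115 to 32610281 (10167 bp, best score 1014).

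Weak peaks lay within 2 kb of a strong peak less often on chromosome 12 than on the other autosomes pooled. Of the 492 on chromosome 12, 33 did so, or 6.71% (interval 4.66 to 9.29%), against 10.8% (interval 10.2 to 11.4%) on the others. Chromosome 10 had 11.2%, with an interval of 9.16 to 13.5% that overlaps that of chromosome 12. Within 10 kb chromosome 12 had 16.9% (interval 13.7 to 20.5%), which takes in the 19.3% of the others. Chromosome 10 had 23.8% (interval 20.99 to 26.8%). Within 100 kb the order turned, with 68.9% on chromosome 12 (interval 64.6 to 73.0%) and 55.3% on the others (interval 54.3 to 56.3%), while chromosome 10 had 70.3% (interval 67.1 to 73.3%). The median distance from a weak peak to the nearest strong peak was 53.5 kb on chromosome 12, 45.2 kb on chromosome 10 and 78.7 kb on the others. By distance to the nearest peak of any score, weak peaks were 26.9% of those with a neighbour within 1 kb (interval 23.1 to 30.99%), and 23.96% on the other autosomes. They were 51.3% of those with the nearest peak 1 to 10 kb away (interval 46.1 to 56.5%), against 44.3% on the other autosomes (interval 42.9 to 45.6%). Chromosome 10 had 43.98% there, and its interval of 39.96 to 48.1% overlaps that of chromosome 12. At 10 to 100 kb the weak share was 48.4% (interval 42.6 to 54.1%), which takes in the 45.1% of the others. Above 100 kb it was 68.2% of 22 peaks (interval 45.1 to 86.1%), which takes in their 51.6%.

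Across the 20 autosomes, denser ones tended to have more weak peaks and a wider spread of scores, and chromosome 10 departed from the first of these. The Spearman rho of peaks per Mb with the share of weak peaks was 0.68 over 20 autosomes, and 0.73 over the 18 left without chromosomes 12 and 10. With the ratio of the upper to the lower quartile it was 0.72, and 0.62 over the 18. With the share of strong peaks it was 0.44, and 0.24 over the 18. With the share of scores above 2000 it was 0.61, and 0.47 over the 18. All chromosomes share 1 library, 1 input and 1 depth, so these are descriptions of the list. Chromosome 10, nearly as dense as chromosome 12, had 34.1% weak peaks (interval 32.2 to 36.01%), and this interval does not reach that of chromosome 12. Base composition, copy number and mappability along chromosome 12 were not analysed here.

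**Figure D4:**
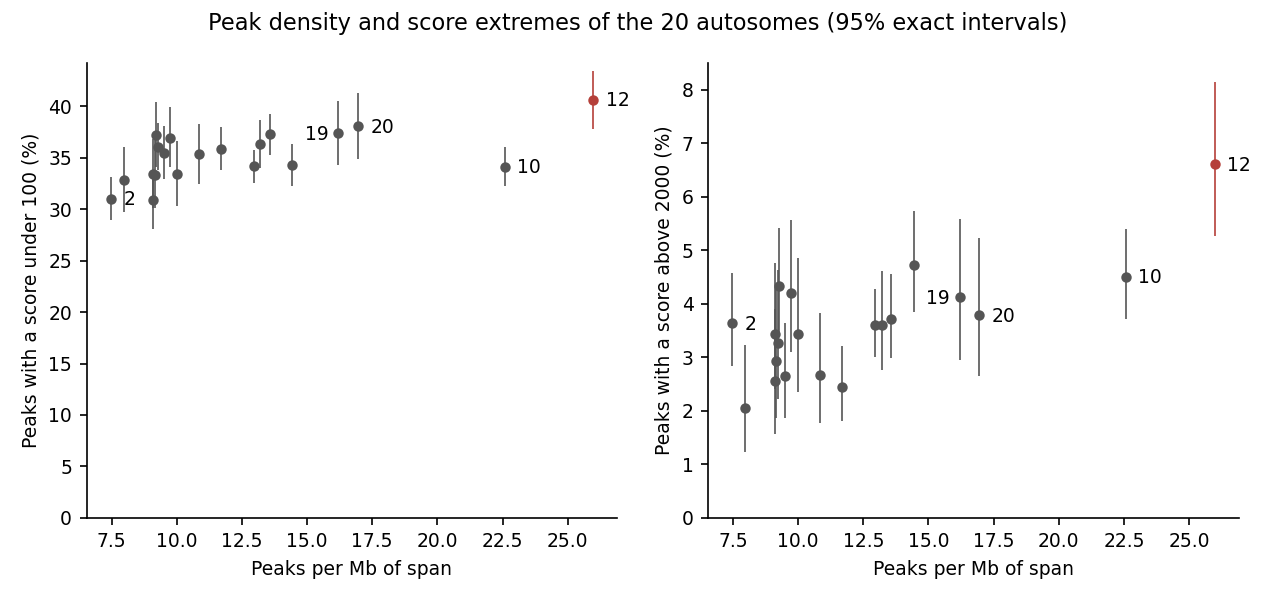
Each point is 1 of the 20 autosomes, with exact 95% intervals: the share of its peaks with a score under 100 (left) and above 2000 (right) against its peaks per Mb of span. Chromosome 12 (red) lies at the upper right in both panels, at 40.6% and 6.61%, while chromosome 10 has 34.1% and 4.51%.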

How the data were processed

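MACS was run by the authors on H3K4me3 against input, per the file header, and per the submitters' processing notes the build is rn4. The sources used here name no MACS version, settings or aligner, and the labels' protocols name both ChIP-chip and sequencing. The deposited unit is a score per peak. No read counts are in the list, so depth is unknown.

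Peaks on chromosome 12 were compared with the other 19 autosomes using SciPy 1.17.1, pandas 2.3.3 and NumPy 2.4.6 under Python 3.11.15, and matplotlib 3.10.9 drew the figures. The span of a chromosome begins at its first peak and ends at its last. Shares have exact Clopper-Pearson intervals, densities exact Poisson intervals, density ratios exact conditional binomial intervals, and medians order-statistic intervals, all at 95%. Many intervals were compared with no correction for their number, and neighbouring peaks are not independent, so the intervals are too narrow. With 1 library there was no test between groups. The functions were tested on simulated peaks.

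Named items are the 10 widest and 10 highest-scoring peaks, the 5 fullest windows, the 5 emptiest runs of windows (under 5 peaks per window, a limit set after the counts were seen), the 5 longest gaps and the 5 joined regions with the most peaks. Other windows were singled out after their values were seen. The chromosome, the measures and the limits were chosen with earlier results of these data known, among them its density and its score spread. Gene positions and sequences on rn4 were not used here.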

Additional observations from a re-analysis of the deposited data

How the results depend on the processing

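The alternatives on the density ratio and the leaving out of windows were chosen after seeing the data. Keeping peaks at or above the median score of the list gave 11.9 peaks per Mb, a density ratio of 2.08 to the others pooled. Chromosome 10 had 11.6 per Mb under this limit, so the lead over it was small. The fullest window then held 37 peaks, and 44.2% of peaks lay within 2 kb of another. The median width was 1878 bp, the highest of the 20 autosomes, from 12th. Joining peaks up to 1 kb apart gave 19.8 per Mb, a ratio of 2.42, a fullest window of 55 and a median width of 1312 bp. It also gave 20.9% strong regions (6th of 20, from 3rd) and a quartile ratio of 13.0. The share within 2 kb became 12.1%, since joining removes the short gaps. That share ranked 6th of 20, from 19th. It counts only gaps above 1 kb, so its rank cannot be set against the low rank before joining. Peaks of at least 500 bp gave 24.1 per Mb, a median width of 1117 bp and 36.6% weak peaks. Other limits gave 31.4% of scores under 75, 6.61% above 2000, 42.03% within 1 kb, and 29.2 for the 90th over the 10th percentile, as they had to by construction. The remaining alternatives, 18 of 37, stayed within the interval of the value. With each 1 Mb window left out in turn the weak share ran from 39.8 to 41.3% and the quartile ratio from 9.36 to 10.5, and 3 windows (1 to 2, 17 to 18 and 33 to 34 Mb) each took the ratio below the 9.61 of chromosome 10 when left out. Density, the weak share and the quartile ratio remained the highest of the 20 autosomes under joining and under the minimum width. No paired analysis was possible because each kind of DNA had 1 library. The list gives no reads, so how far the weakest peaks exceed background is known only from the authors' score.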
